A study of Mus musculus with 6 samples.

Results

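The interleukin 1 family genes described here are 9 cytokine, antagonist and receptor genes: the agonists Il1a, Il1b, Il18 and Il33, the antagonists Il1rn, Il1r2 and Il18bp, and the receptor chains Il1rap and Il1rl1. They were matched by gene symbol. All 9 were among the 53153 gene symbols of the count table and among the 16621 genes with enough reads to be tested. Bulk RNA-seq had been carried out on cells sorted from gastrointestinal stromal tumors (GISTs) of mice, with 3 libraries from vehicle-treated and 3 from imatinib-treated animals. All 6 libraries came from C57BL/6J mice of genotype KitV558del/+, a germline gain-of-function Kit allele that gives rise to intestinal GIST, and all carried the same batch number. The study's methods describe animals of 8 to 10 weeks and imatinib, an inhibitor of the KIT kinase, at 600 mg per L of drinking water for 1 week. Both groups carry the Kit allele, so no library came from a mouse without it. The comparison asks how early imatinib treatment alters expression in tumor γδ T cells.

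Whether each library stands for its own mouse is not stated in the labels. The tests therefore measure spread between libraries, and that spread may be technical. Library totals ran from 21333897 to 25214210 counts. The study describes the sorted cells as γδ T cells (CD45+CD3+NK1.1-TCRγδ+), whereas the text attached to the series names regulatory T cells of tumor and lymph node. The defining γδ marker list was detected in every library, with all 9 of its genes tested and a summed level of 996 to 1956 TMM-scaled CPM (counts per 1e6 of the library's total, corrected for composition) with vehicle and 2127 to 3258 CPM with imatinib. Foxp3, which defines regulatory T cells, had 9, 7 and 18 reads in vehicle replicates 1 to 3 and 4, 0 and 5 reads in imatinib replicates 1 to 3. Markers of other cells were present too: 15 macrophage and monocyte genes summed to 10781 to 14065 CPM with vehicle and 6724 to 12064 CPM with imatinib, and 8 B and plasma cell genes to 3326 to 26905 CPM and 18446 to 27579 CPM. The 6 αβ T cell genes summed to 346 to 364 CPM with vehicle and 432 to 533 CPM with imatinib. For 6 genes of the GIST lineage, Kit among them, the sums were 111 to 123 CPM and 190 to 435 CPM. In these bulk libraries fewer cells of a type and less RNA per cell cannot be told apart.

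Interleukin 1α and interleukin 1β, the products of Il1a and Il1b, both bind the receptor IL1R1, which then recruits the accessory chain IL1RAP and signals through MYD88 and IRAK kinases to NF-κB. Interleukin 18 and interleukin 33 signal in the same way through related receptors, interleukin 33 through ST2 (Il1rl1) with IL1RAP. Interleukin 1β and interleukin 18 are made as precursors that caspase 1 cleaves in inflammasomes, and macrophages and other myeloid cells are well-known sources. Interleukin 1, together with interleukin 23, is a known stimulus of interleukin 17 production by γδ T cells.

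Of the 9 genes, 1 fell with imatinib and none rose. Il1a was 4.16-fold lower, and it was the only member past an adjusted p of 0.05 in edgeR's quasi-likelihood test. The other 8 did not pass: Il1b, Il18, Il18bp, Il1rn and Il1r2 had negative log2 fold changes, and Il33, Il1rl1 and Il1rap positive ones. Over all genes tested, 8.42% fell and 6.15% rose at the same threshold, and the median log2 fold change was 0.01. At an unadjusted p under 0.05, 2800 genes were lower and 2366 higher. In 3 of the 9 genes (Il1a, Il18 and Il18bp) every imatinib library was below every vehicle library, a pattern held by 20.2% of all genes tested, and in none was every imatinib library above, as in 17.5% of all genes.

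**Figure D1:**
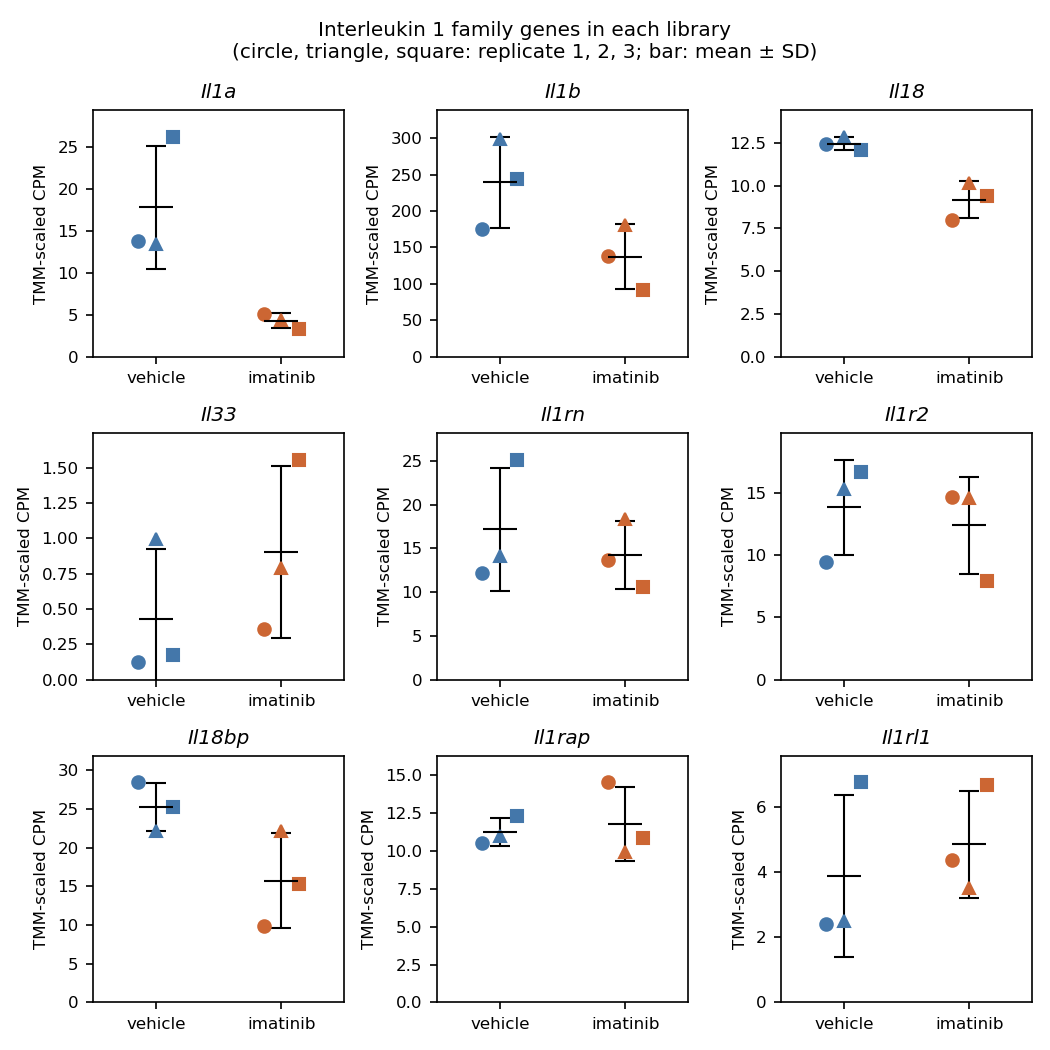
TMM-scaled CPM (y axis) of the 9 genes in the 3 vehicle and 3 imatinib libraries. Circles, triangles and squares are replicates 1, 2 and 3, and bars show the mean ± SD (for Il33 the lower end of the vehicle bar lies under 0 and is not drawn). The Il1a points of imatinib lie between 3.34 and 5.11 CPM, under all vehicle points, whereas those of Il1rn, Il1r2, Il1rap, Il1rl1, Il33 and Il1b overlap between groups.

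Il1a encodes interleukin 1α, an agonist that is active without inflammasome cleavage and is known as an alarm signal of damaged cells. The gene lies on the minus strand of chromosome 2 (GRCm38, 129299610 to 129309972). Vehicle replicates 1, 2 and 3 held 13.8, 13.4 and 26.2 CPM of Il1a, from 337, 294 and 608 reads. Imatinib replicates 1, 2 and 3 held 5.11, 4.35 and 3.34 CPM, from 113, 88 and 75 reads. The groups did not overlap: the lowest vehicle library was well above the highest imatinib library, and vehicle replicate 3 stood above the other two vehicle libraries. Mean Il1a fell from 17.8 ± 7.29 CPM to 4.27 ± 0.886 CPM (SD, n = 3 each). The log2 fold change was -2.06 (SE 0.31, 95% interval -2.77 to -1.35, edgeR adjusted p = 0.00823). Leaving out any one library kept Il1a past the threshold, with log2 fold changes from -2.23 to -1.67 and an adjusted p of at most 0.0402. Without vehicle replicate 3, the highest library, it was -1.67 (adjusted p = 0.0237).

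Il1b encodes interleukin 1β, the inflammasome-processed agonist of the same receptor, and lies near Il1a on the same strand of chromosome 2 (129364570 to 129371139). Its level was 175 CPM, 300 CPM and 245 CPM in vehicle replicates 1, 2 and 3. In imatinib replicates 1, 2 and 3 it was 139 CPM, 181 CPM and 91.6 CPM. The groups overlapped, since imatinib replicate 2 was just above vehicle replicate 1, and imatinib replicate 3 was the lowest of the 6. The means were 239.8 ± 62.5 CPM and 137 ± 44.7 CPM (SD, n = 3 each), and the log2 difference of -0.81 (SE 0.28, 95% interval -1.47 to -0.14) did not pass the threshold (edgeR adjusted p = 0.101). The call for Il1b depended on the test and on 1 library. By DESeq2 its adjusted p was 0.00797 at a log2 fold change of -0.81, and without imatinib replicate 2 the edgeR log2 fold change was -1.08 (adjusted p = 0.0492), whereas over the other libraries left out in turn the adjusted p lay between 0.0881 and 0.273. A transcript from the opposite strand, Il1bos, which is named after looking at its values, had 2.04, 2.68 and 1.89 CPM with vehicle and 0.452, 1.63 and 0.0446 CPM with imatinib (log2 fold change -1.64, SE 0.88, adjusted p = 0.244). The strand setting of the read counting is not stated, so reads of Il1bos and Il1b cannot be told apart.

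The promoters of Il1a and Il1b are shown because the paired interleukin 1 genes differ in whether they passed the test. Each run is the 250 bases before the transcription start from RefSeq (GRCm38.p6, minus strand, written 5′ to 3′), at chr2:129309973-129310222 for Il1a and chr2:129371140-129371389 for Il1b. Capitals mark matches to the TATA box, spelled TATAAA, and to the AP-1 motif, spelled TGACTCA.
Il1a: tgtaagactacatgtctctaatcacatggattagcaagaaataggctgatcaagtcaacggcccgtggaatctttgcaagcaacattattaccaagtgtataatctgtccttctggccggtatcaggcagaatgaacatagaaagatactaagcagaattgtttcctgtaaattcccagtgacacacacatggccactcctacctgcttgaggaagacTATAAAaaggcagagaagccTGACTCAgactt
Il1b: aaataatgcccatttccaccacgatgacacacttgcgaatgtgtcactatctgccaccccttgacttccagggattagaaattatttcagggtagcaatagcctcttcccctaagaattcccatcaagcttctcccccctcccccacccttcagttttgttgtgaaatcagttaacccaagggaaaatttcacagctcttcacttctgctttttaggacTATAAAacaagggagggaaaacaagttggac
Both windows hold TATAAA shortly before the start, beginning 32 bases before it in Il1a and 31 bases before it in Il1b. Il1a alone of the pair holds TGACTCA, beginning 12 bases before the start. The search covered both strands of 13 RefSeq windows of the 9 genes (250 bases before to 50 bases after a start), and all 9 were matched by symbol. TATAAA was in 6 of these 13 windows (Il18, Il1a, Il1b, Il1rn and Il33) and in 13.6% of all 32851 windows, and TGACTCA in 2 (Il1a and Il1rn) and in 5.2%. An interferon-stimulated response element, spelled as GAAA, any 2 bases and GAAA again, was in 1 member window (Il1rap) and in 3.44% of all. An NF-κB motif, spelled GGGNNTTCC, was in none and in 5.82% of all. Only this spelling was searched, and NF-κB sites of another length or spelling would be missed. These motifs were picked after it was known which genes moved, no 2 of them share letters in the windows shown, and a match is a description of the sequence only.

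Il18, on chromosome 9 (50554827 to 50581840), encodes interleukin 18, which with interleukin 12 drives interferon γ production by lymphocytes. Vehicle libraries held 12.4, 12.9 and 12.1 CPM, and imatinib libraries 8.001, 10.1 and 9.40 CPM, in replicate order. Every imatinib library was below every vehicle library, and the vehicle libraries lay close together. The means were 12.5 ± 0.400 CPM and 9.18 ± 1.09 CPM (SD, n = 3 each), a log2 difference of -0.44 (SE 0.17, 95% interval -0.83 to -0.05) that did not pass the threshold (edgeR adjusted p = 0.119). With any one library left out, the adjusted p of Il18 stayed between 0.0903 and 0.266.

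Il33, on chromosome 19 (29925114 to 29960718), encodes interleukin 33, a nuclear alarmin that stromal and epithelial cells are known to make. It was the least abundant of the 9, with 3, 22 and 4 reads in vehicle replicates 1, 2 and 3 and 8, 16 and 35 reads in imatinib replicates 1, 2 and 3. These counts correspond to 0.122, 0.999 and 0.172 CPM and to 0.362, 0.791 and 1.56 CPM. The groups overlapped, with vehicle replicate 2 above imatinib replicates 1 and 2. The log2 fold change of 1.07 had a wide interval (SE 0.93, 95% interval -1.03 to 3.18, edgeR adjusted p = 0.470), so a difference in either direction was not detectable at this depth. Without vehicle replicate 2 it was 2.57 and without imatinib replicate 3 it was 0.42, neither past the threshold (adjusted p = 0.182 and 0.844). Marker genes of fibroblasts, a known source, summed to 96.0 to 282.9 CPM with vehicle and 384 to 746 CPM with imatinib (10 of 10 tested, none past the threshold), and the part of these cells in the Il33 reads was not tested.

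None of the 3 antagonists passed the test. Il1rn encodes the interleukin 1 receptor antagonist, which occupies IL1R1 without signalling, and lies on the plus strand of chromosome 2 (24336853 to 24351494). It stood at 12.2, 14.2 and 25.1 CPM in vehicle replicates 1 to 3 and at 13.7, 18.4 and 10.6 CPM in imatinib replicates 1 to 3. The groups overlapped in part: vehicle replicate 3 was the highest library, as for Il1a, and imatinib replicate 3 the lowest. The log2 fold change was -0.27 (SE 0.31, 95% interval -0.99 to 0.45, edgeR adjusted p = 0.601), and it turned to 0.11 without vehicle replicate 3. The interval does not leave out a fall of the size of the Il1b estimate.

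Il1r2 encodes the decoy receptor, which binds interleukin 1 but has no signalling domain (chromosome 1, 40074079 to 40125231). Vehicle libraries held 9.47, 15.3 and 16.7 CPM and imatinib libraries 14.7, 14.6 and 7.89 CPM. The groups overlapped, and each had 1 low library, vehicle replicate 1 and imatinib replicate 3. Vehicle replicates 2 and 3 lay above imatinib replicates 1 and 2. The log2 fold change was -0.16 (SE 0.30, 95% interval -0.84 to 0.52, edgeR adjusted p = 0.759), and without imatinib replicate 3 it turned to 0.08.

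Il18bp encodes the secreted protein that binds and neutralizes interleukin 18, a gene known to be induced by interferon γ (chromosome 7, minus strand, 102014885 to 102018690). Its level was 28.4, 22.2 and 25.2 CPM in vehicle replicates 1 to 3 and 9.90, 22.1 and 15.3 CPM in imatinib replicates 1 to 3. The groups did not overlap, but only narrowly, since imatinib replicate 2 lay just under vehicle replicate 2. The means were 25.3 ± 3.14 CPM and 15.8 ± 6.12 CPM (SD, n = 3 each), a log2 difference of -0.68 (SE 0.27, 95% interval -1.30 to -0.06, edgeR adjusted p = 0.127). Imatinib replicate 2 decided this result: without it the log2 fold change was -1.03 and passed (adjusted p = 0.0165), while without imatinib replicate 1, the lowest, it was -0.43 (adjusted p = 0.197). In the list of 10 interferon response genes, 6 fell, none rose and 4 did not pass (median log2 fold change -1.55). Over all genes tested, 8.42% fell. Those of the list that fell were led by Mx1 (-2.98, adjusted p = 0.00359), Oas2 (-2.54, adjusted p = 0.00681), Isg15 (-1.77, adjusted p = 0.0108) and Usp18 (-1.61, adjusted p = 0.035). Usp18 kept its call only without imatinib replicate 2 (adjusted p = 0.00114), and lay between 0.0507 and 0.107 without each of the others. Among the 4 that did not pass were Irf1 (-0.33, edgeR adjusted p = 0.185), Irf7 (-1.30, adjusted p = 0.0508) and Ifit1 (-1.36, adjusted p = 0.0962). These genes were named with their values in view. A link between interferon responses and the Il18bp level was not tested.

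The receptor chains did not differ detectably between groups. Il1rap, on chromosome 16 (26581704 to 26730117), encodes the shared accessory chain. It held 10.5, 10.9 and 12.3 CPM with vehicle and 14.5, 9.89 and 10.8 CPM with imatinib. Imatinib replicate 1 was the highest and the other libraries overlapped. The log2 fold change was 0.06 (SE 0.20, 95% interval -0.38 to 0.51, edgeR adjusted p = 0.862), the narrowest interval of the 9 genes after Il18. Its sign turned without vehicle replicate 1 (-0.0044) and without imatinib replicate 1 (-0.12).

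Il1rl1 encodes ST2, the interleukin 33 receptor of mast cells, group 2 innate lymphoid cells and a part of regulatory T cells (chromosome 1, 40429570 to 40465415). It held 2.41, 2.50 and 6.76 CPM with vehicle and 4.38, 3.51 and 6.68 CPM with imatinib. Replicate 3 was the highest of its group in both groups, and the groups overlapped. The log2 fold change was 0.32 (SE 0.46, 95% interval -0.73 to 1.37, edgeR adjusted p = 0.679). Without vehicle replicate 3 it was 0.98, which was not past the threshold either. Mast cell and basophil markers were near 0, with summed levels of 0.326 to 1.89 CPM with vehicle and 1.29 to 6.37 CPM with imatinib, 1 of 10 genes tested, and Tpsab1 and Mcpt8 at 0 in all libraries. Their sum was the highest in replicate 3 of each group, as was Il1rl1. In vehicle replicate 3, however, Gata2 alone held 1.33 CPM of that sum. Cpa3 had 0, 10 and 1 reads in vehicle replicates 1 to 3 and 0, 1 and 39 reads in imatinib replicates 1 to 3. Markers of group 2 innate lymphoid cells and regulatory T cells summed to 53.3 to 103 CPM with vehicle and 76.6 to 127 CPM with imatinib (6 of 9 tested, 2 higher, Gata3 and Il17rb, none lower), with replicate 3 the lowest vehicle library. Of all genes tested, 6.15% rose and 8.42% fell. The part of these cells in the Il1rl1 reads was not tested.

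**Figure D2:**
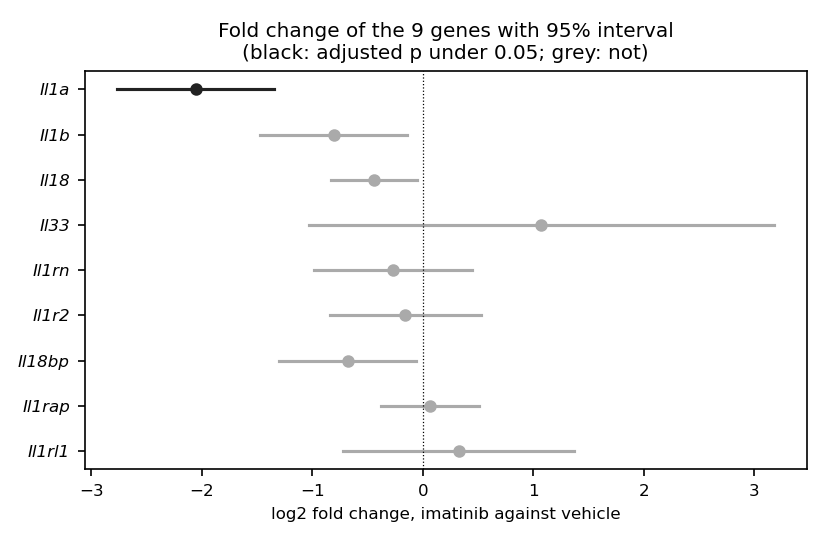
Log2 fold change of imatinib against vehicle (x axis) for the 9 genes, with 95% intervals from edgeR's quasi-likelihood fit of 3 against 3 libraries. Black marks an adjusted p under 0.05, held by Il1a alone at -2.06, and grey marks the other 8, of which Il1b, Il18 and Il18bp have unadjusted intervals that end below 0.

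Levels of different genes were compared as CPM per kilobase of exon, a level per length. In vehicle libraries Il1b was the most abundant at 126 ± 32.8 CPM per kb, followed by Il18 (12.1), Il1a (8.997), Il18bp (8.35), Il1r2 (7.25), Il1rn (3.10), Il1rap (0.990), Il1rl1 (0.564) and Il33 (0.149). The libraries of neighbours in this order did not overlap between Il1b and Il18, Il1r2 and Il1rn, Il1rn and Il1rap, and Il1rl1 and Il33, and did overlap between the others. In imatinib libraries the order was Il1b (71.9 ± 23.4 CPM per kb), Il18 (8.90), Il1r2 (6.49), Il18bp (5.21), Il1rn (2.57), Il1a (2.16), Il1rap (1.03), Il1rl1 (0.705) and Il33 (0.313). There the neighbours Il1b and Il18, Il18 and Il1r2, and Il1a and Il1rap were apart. Il1a thus moved from the third to the sixth place per length, below Il1rn in the mean but overlapping it. On the CPM scale Il1b alone made up 58.3% to 76.5% of the summed reads of the 9 genes. The 4 agonists summed to 201 CPM, 327 CPM and 283 CPM with vehicle and 152 CPM, 196 CPM and 106 CPM with imatinib, without overlap, and the 3 antagonists to 50.1, 51.6 and 67.1 CPM and 38.3, 55.1 and 33.8 CPM, with overlap. Both sums are descriptions and were not tested.

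Among the vehicle libraries, replicate 3 was the highest for 5 genes (Il1a, Il1rn, Il1r2, Il1rap and Il1rl1), whereas replicate 1 was the lowest for 6. Among the imatinib libraries, replicate 2 was the highest for Il1b, Il18, Il1rn and Il18bp, and replicate 3 the lowest for Il1a, Il1b, Il1rn and Il1r2. Of 10122 genes compared over the 6 libraries, those most like Il1b by Pearson's r of log2 CPM were Gm33989 (0.994), Plac8 (0.984) and Cnbd2 (0.979). The closest to Il1rn were Prim1 (0.985), Rfwd3 (0.985) and Ncapd2 (0.971), and the closest to Il18bp were Skap2 (0.999), Tor3a (0.999) and Fut4 (0.997). An r over 0.9 was held by 118 genes for Il1b, 55 for Il1rn and 742 for Il18bp. These values describe 6 libraries that share the treatment groups and the scaling. Among pairs of members that include Il1b, Il1rn or Il18bp, the highest r was 0.913, between Il18 and Il18bp, followed by Il1rn with Il1r2 (0.786), Il1a with Il1b (0.775), Il1b with Il1r2 (0.739) and Il1b with Il18 (0.738). Those of Il1rap were lower, at -0.087 with Il1b, 0.112 with Il1rn and -0.69 with Il18bp.

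Ratios within a library do not depend on library scaling. The ratio of Il1rn to Il1b reads sets the antagonist against the more abundant agonist, and was 0.0695, 0.0473 and 0.103 with vehicle and 0.0988, 0.102 and 0.116 with imatinib. Vehicle replicate 3 lay above imatinib replicates 1 and 2, so the groups overlapped (log2 difference 0.60, exact two-sided permutation p = 0.3). The ratio of Il18bp to Il18 was 2.29, 1.72 and 2.09 with vehicle and 1.24, 2.18 and 1.63 with imatinib, also overlapping (log2 difference -0.30, exact permutation p = 0.3). The decoy Il1r2 was compared with Il1r1, the signalling receptor, which held 40.6, 65.5 and 30.0 CPM with vehicle and 98.4, 42.3 and 84.5 CPM with imatinib (log2 fold change 0.73, edgeR adjusted p = 0.293). The ratio of Il1r2 to Il1r1 was 0.233, 0.234 and 0.556 with vehicle and 0.149, 0.345 and 0.0933 with imatinib (log2 difference -0.89, exact permutation p = 0.3). The raw p of each of the 3 ratios was 0.3, so adjustment over them leaves it at 0.3, and 3 against 3 libraries cannot go below 0.1. Il1a reads per Il1b read, a ratio chosen after its values were seen and not tested, were 0.0786, 0.0446 and 0.107 with vehicle and 0.0369, 0.0241 and 0.0365 with imatinib. Each imatinib library was below each vehicle library in this ratio, a log2 difference of -1.18.

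**Figure D3:**
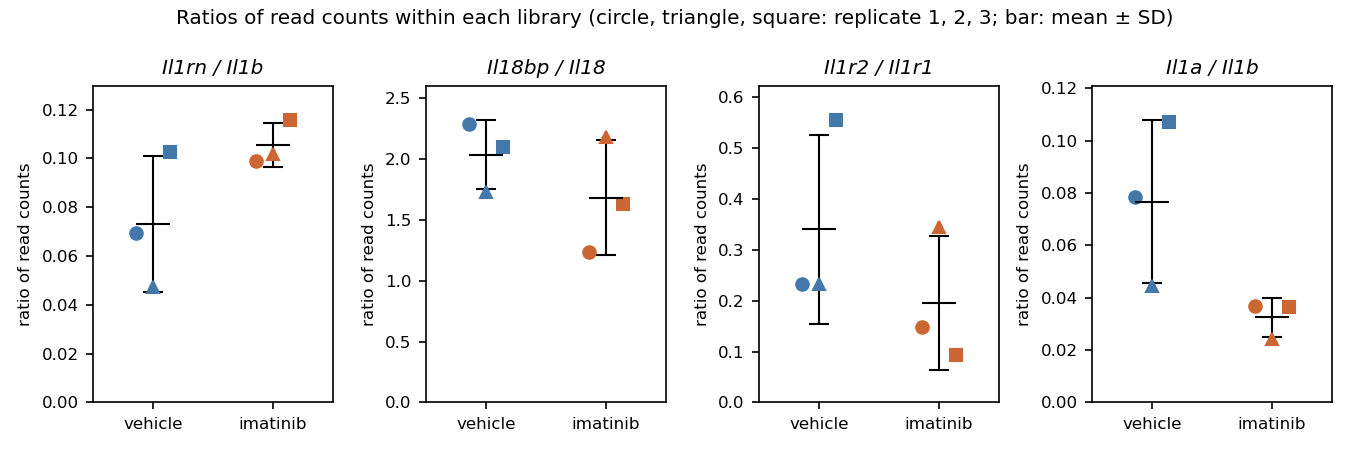
Ratio of read counts (y axis) within each of the 6 libraries for Il1rn to Il1b, Il18bp to Il18, Il1r2 to Il1r1 and Il1a to Il1b. Circles, triangles and squares are replicates 1, 2 and 3, and bars show the mean ± SD. Only in Il1a to Il1b are the groups apart, with imatinib at most 0.0369 and vehicle at least 0.0446.

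The order of libraries by myeloid marker sums matched that of some of these genes in part, within groups of 3 libraries. For the counts of markers called, 6.15% of all genes tested rose and 8.42% fell. Summed macrophage and monocyte markers were 13286, 10781 and 14065 CPM in vehicle replicates 1 to 3 and 6724, 12064 and 10830 CPM in imatinib replicates 1 to 3 (15 of 15 tested, 3 higher, none lower, median log2 fold change -0.43). Within the imatinib group these markers were the lowest in replicate 1 and the highest in replicate 2, the same order as Il18 and Il18bp. Within the vehicle group the orders differed: the markers were the highest in replicate 3 and the lowest in replicate 2, the reverse of Il18, while Il18bp was the highest in replicate 1. When libraries were scaled to these macrophage counts, an alternative added with the results in view that shifted the median of all genes to 0.45, Il1a was still lower (log2 fold change -1.54, adjusted p = 0.0225), whereas Il1b (-0.41), Il18 (-0.04) and Il18bp (-0.34) were not past the threshold and Il1rn (0.17) and Il1r2 (0.31) turned positive. Scaled instead to the summed counts of the CD3 chain genes, which shifted the median to -0.72 with 4678 genes lower and 135 higher, 5 members were lower: Il1a (-2.90), Il1b (-1.48, adjusted p = 0.00144), Il18bp (-1.36, adjusted p = 0.00202), Il18 (-1.14, adjusted p = 0.019) and Il1rn (-1.06, adjusted p = 0.0205). Under CD3 scaling Il1rap (-0.71) and Il1rl1 (-0.59) turned negative without passing. Neutrophil markers, of which Ly6g, Ngp, Camp and Ltf were at 0 in some libraries, summed to 96.1 to 150.8 CPM with vehicle and 144.7 to 429.5 CPM with imatinib, with replicate 2 the highest of both groups, as for Il1b (11 of 15 tested, 1 higher, median 2.65). Between groups the median log2 fold change of these neutrophil markers was positive, whereas the log2 fold change of Il1b was negative. Dendritic cell markers summed to 855 to 1152 CPM and to 500 to 858 CPM (10 tested, 2 higher, 1 lower). The part of these cells in the results was not tested. Scaling whole libraries to macrophage counts shifts all genes together, so it cannot show which cells the reads came from.

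**Figure D4:**
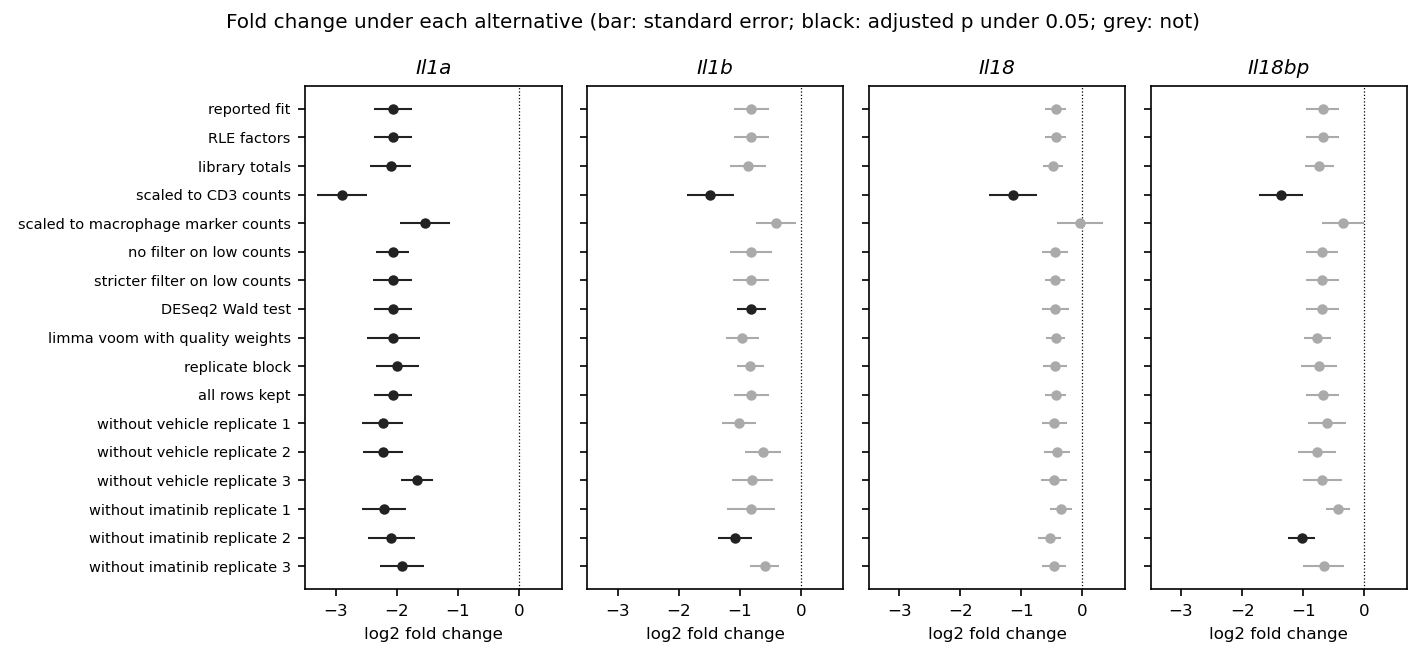
Log2 fold change (x axis, bars show the standard error) of Il1a, Il1b, Il18 and Il18bp in the reported fit and under 16 alternatives (rows). Black marks an adjusted p under 0.05. Il1a is black in every row, from -2.90 with CD3 scaling to -1.54 with macrophage scaling, and Il18 is black with CD3 scaling only.

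The other genes of the pathway moved in both directions, as did all genes tested, of which 8.42% fell and 6.15% rose. Of the 5 other ligand genes, Il36rn, Il36a, Il36b and Il1f10 were at 0 in all 6 libraries. Il36g, an interleukin 36 gene, rose from 11, 20 and 17 reads to 44, 142 and 42 reads (log2 fold change 2.37, SE 0.63, edgeR adjusted p = 0.0389). With libraries left out in turn, the Il36g call held only without imatinib replicate 1 (adjusted p = 0.0346, and 0.0577 to 0.127 without each other one). Of the other receptors, 5 of 7 were tested and 2 rose: Il18r1, the interleukin 18 receptor chain (0.80, adjusted p = 0.0441), and Sigirr, a negative regulator of the family (0.64, adjusted p = 0.0423). The Il18r1 call held only without imatinib replicate 2 (adjusted p = 0.00515, others 0.0976 to 0.125), and that of Sigirr only without imatinib replicate 2 or vehicle replicate 2 (adjusted p = 0.0266 and 0.0473, others 0.0975 to 0.142). With CD3 scaling Il18r1 lost its call at 0.06 (adjusted p = 0.907) and Sigirr turned to -0.09 (adjusted p = 0.852).

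Of 25 receptor signalling genes, 2 rose, 5 fell and 18 did not pass (median log2 fold change -0.16). The shares over all genes tested, to be set beside each list count here, were 8.42% lower and 6.15% higher. Irak3, an inhibitory IRAK, rose (1.34, adjusted p = 0.0287), while Nfkbiz, a nuclear cofactor of NF-κB (-1.05, adjusted p = 0.0339), Chuk, an IκB kinase (-0.74, adjusted p = 0.0132), and Irak2 (-0.72, adjusted p = 0.0106) fell. Chuk and Irak2 passed with any one library left out, at an adjusted p of at most 0.0473. Irak3 was lost without imatinib replicate 1 or 3 or vehicle replicate 1 or 3 (adjusted p 0.0629 to 0.0936), and Nfkbiz without imatinib replicate 2 or 3 or vehicle replicate 2 or 3 (0.0724 to 0.105). Of 22 processing and release genes 19 were tested, of which 3 rose, 8 fell and 8 did not pass (median -0.41). The inflammasome sensors Nlrp1b (-1.72, adjusted p = 0.0029) and Nlrc4 (-1.21, adjusted p = 0.00434) fell in every fit with 1 library left out, though reads of Nlrp1b may be shared with its close paralogs. Gsdme (-0.97, adjusted p = 0.0479), a pore-forming gasdermin, was lost without any one library (0.0576 to 0.152), and S100a10 rose (1.11, adjusted p = 0.0174) but not without imatinib replicate 3 or vehicle replicate 1 (0.0583 and 0.0672). Scaled to macrophage counts, Nlrp1b still passed (-1.32, adjusted p = 0.0214), whereas Nlrc4 (-0.82), Nfkbiz (-0.57), Gsdme (-0.50), Chuk (-0.33) and Irak2 (-0.30) did not. Casp1, which cleaves the interleukin 1β and interleukin 18 precursors, did not pass (-0.41, adjusted p = 0.0571; named after its values were seen). Of 10 genes of the type 17 γδ response, Il23r (1.04, adjusted p = 0.0465) and Maf (0.62, adjusted p = 0.0103) rose and Nfkbiz fell (median 0.77). Il23r passed only without imatinib replicate 2 (0.00457, others 0.0796 to 0.142), and Maf with any one library left out. With CD3 scaling Maf was at -0.11 (adjusted p = 0.820), and Il23r (0.25, adjusted p = 0.577), Irak3 (0.65, adjusted p = 0.135) and S100a10 (0.41, adjusted p = 0.374) also lost their calls.

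**Figure D5:**
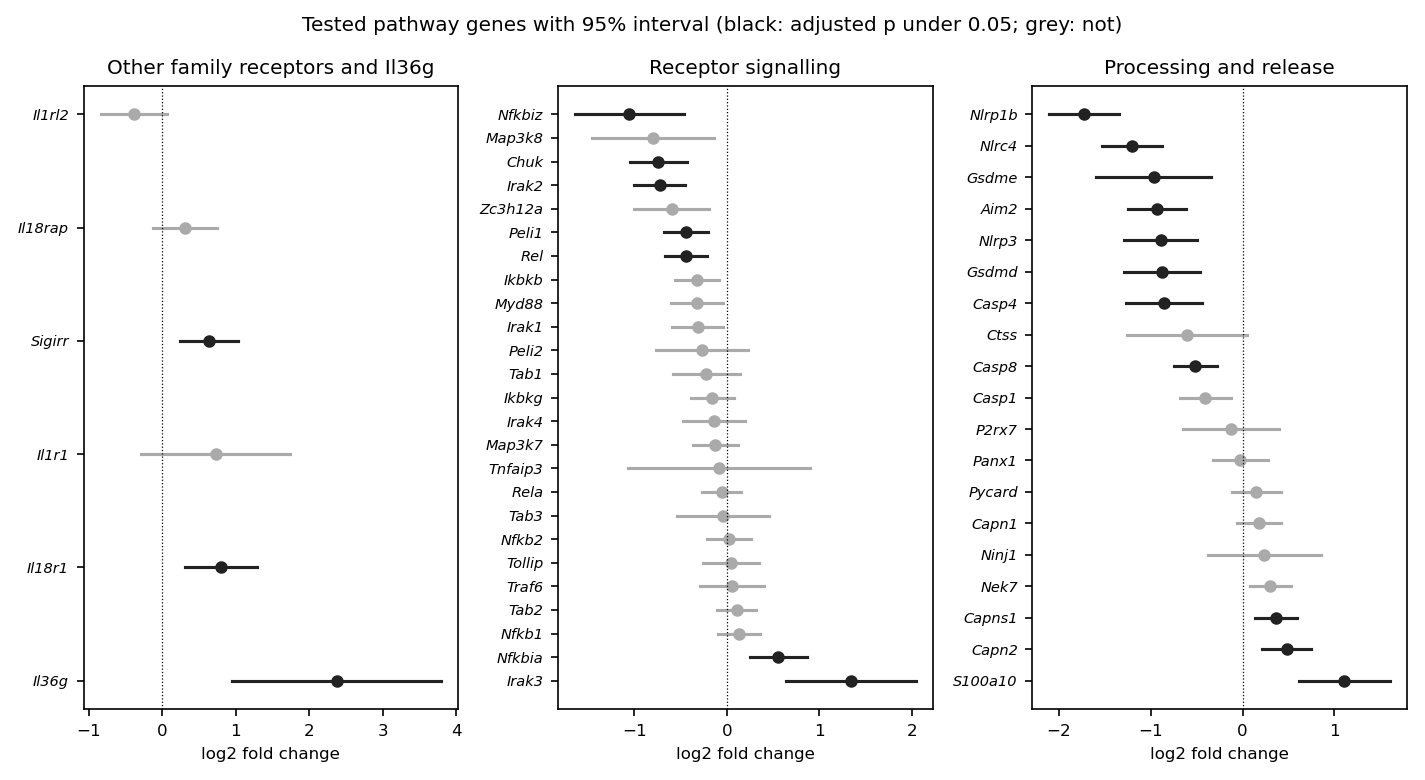
Log2 fold change of imatinib against vehicle (x axis) with 95% intervals for the tested genes of 3 lists around the 9 genes: other receptors with Il36g, receptor signalling, and processing and release. Black marks an adjusted p under 0.05: 2 receptors and Il36g rose, 5 signalling genes fell and 2 rose, and 8 processing genes fell and 3 rose. Of all genes tested, 8.42% fell and 6.15% rose.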

How the data were processed

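The authors deposited whole-number read counts per gene, from poly(A) RNA of 3 vehicle and 3 imatinib libraries aligned with STAR to GRCm38 (mm10) and counted with featureCounts, whose annotation and strand setting are not stated in the sources read. Of 57332 rows, 3016 without a name (0.118% to 0.158% of counts) were left out, 1013 exact repeats counted once and 78 repeated symbols summed. A further 3 count columns that match no sample were not read. Replicates of a group differed beyond counting noise (chi-square per gene 37.1 to 115). Genes passing filterByExpr were fitted in edgeR 4.0.16 (robust quasi-likelihood, TMM scaling, R 4.3.3) with Benjamini-Hochberg adjustment over all 16621 genes and a threshold of 0.05. CPM are TMM-scaled. Exon lengths and coordinates came from GENCODE M21. Alternatives were RLE factors, library totals, CD3 or macrophage scaling, other filters, all rows, DESeq2 1.42.0, limma 3.58.1 with voom, a replicate block and leaving out each library. Ratios were compared by exact permutation (scipy 1.17.1). The text names all members, up to 4 called genes per list by size of change (or the 2 most abundant), and the 3 nearest patterns of Il1b, Il1rn and Il18bp. The members and lists were chosen with earlier results of these data known. The fit was also run on counts simulated from its own means and dispersions, which checks the code and not how well the model describes these libraries.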

Additional observations from a re-analysis of the deposited data

How the results depend on the processing

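The lower call of Il1a held under all 16 alternatives (log2 fold change -2.90 to -1.54, adjusted p 7.23e-10 to 0.046). The number of members lower was 5 with CD3 scaling, 2 by DESeq2 and 1 to 3 with each library left out, 3 being without imatinib replicate 2 (Il1a, Il1b and Il18bp); under the other alternatives it was 1. No member was higher under any. The calls over all genes changed too. Lower calls were 4678 of 16621 genes with CD3 scaling, 1952 of 20631 by DESeq2 and 1780 of 17433 without imatinib replicate 2. In the reported fit they were 1399 of 16621. Il1rn turned to 0.17 with macrophage scaling and ran from -0.52 to 0.11 (without vehicle replicate 3) over the fits with each library left out, Il1r2 to 0.31 and from -0.39 to 0.075 (without imatinib replicate 3), and Il1rap to -0.71 with CD3 scaling, with -0.12 to 0.15 over the fits with each library left out (-0.0044 without vehicle replicate 1). With CD3 scaling Il1rl1 was -0.59, Sigirr -0.087 and Maf -0.11. The cause was not tested, and the CD3 and macrophage scalings each shifted the median of all genes. The replicate block gave an Il1a log2 fold change of -1.99 (adjusted p = 0.046), with 1 member lower; over all genes it called 437 lower and 173 higher against 1399 and 1022. Same-numbered libraries did not deviate together (correlations -0.24, -0.08 and -0.08). With 3 libraries per group, these values cannot decide whether the numbers pair them. Over all genes, macrophage scaling called 163 lower and 761 higher, and lower calls were 503 to 1780, and higher calls 182 to 1171, with each library left out. Library totals gave 1608 lower and 763 higher. The stricter filter removed Il33, whose 3 to 35 reads per library limit any statement on it.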
